A study of Mus musculus with 15 samples.

Results

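The cells described here were aortic fibroblasts picked for the RNAs of Cd248, Penk, Ccl11 and 2 further genes, of which a cell did not need to hold every one. They were chosen by detected RNAs from single-cell libraries of mouse aorta, and 8012 cells were chosen out of 23448 fibroblasts and 128019 filtered cells of all types. A fibroblast had at least 3 of the 5 RNAs Pdgfra, Lum, Col1a1, Col1a2 and Dcn and no Ptprc or Cdh5. A chosen cell had at least 3 of the 5 RNAs of set A (Cd248, Sema3c, Penk, Gfpt2 and Ccl11), and more of them than of set B (Ccn5, Fmod, Sfrp2, Cpxm2 and Pdgfrl) or of set C (Gria4, Plcxd3, C7, Naaladl2 and Galnt17). The same rule turned round gave 3018 set B fibroblasts and 4067 set C fibroblasts, which served for comparison. All 15 libraries held chosen cells, between 207 and 1453 of them with a median of 400.

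The study compared young and old C57BL/6N mice that received a vehicle or fisetin, a plant flavonol used as a senolytic, by oral gavage. Young mice on vehicle (Y VEH) gave 4 libraries and young mice on fisetin (Y FIS) gave 4, while old mice on vehicle (O VEH) gave 3 and old mice on fisetin (O FIS) gave 4. Fisetin was given at 100 mg/kg/day in an intermittent schedule. Young mice were 3 months old by the sample labels and 6 months old by the study's methods, and old mice were 27 months old in both. Each library pooled the aortas of 3 mice of 1 sex by the labels, so that the library is the replicate and single animals cannot be seen. Females gave the libraries named F1 and F2 and males those named M1 and M2 in each group, except that O VEH had a single male library. Aortas were cleaned, digested with enzymes and sorted for viable cells before droplet capture.

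The outer coat of an artery, the adventitia, is a loose collagen layer with fibroblasts, nerves, small vessels and immune cells. One kind of fibroblast recurs around the large vessels of many organs and carries Pi16, Dpp4, Cd34, Ly6a and Cd55, and it is often described as a reserve from which more specialised fibroblasts arise. Others are marked by Col15a1, basement membrane collagens and Cxcl12 and sit within the tissue. Cd248 encodes endosialin, a surface glycoprotein of stromal cells. Penk encodes proenkephalin, the precursor of the enkephalin opioid peptides. Ccl11 encodes eotaxin, a chemokine for eosinophils. Sema3c encodes a secreted guidance protein, and Gfpt2 encodes the entry enzyme of the hexosamine pathway, which feeds hyaluronan and glycoprotein synthesis.

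Libraries held between 49964001 and 74587567 unique molecular identifiers (UMIs, each of which stands for 1 captured RNA molecule). Chosen cells had a median of 7894.5 to 15675 UMIs by library. The lowest median belonged to Y FIS M1, which also had the most filtered cells (14805) and the highest share of called doublets (4.68%). The main counts of changed RNAs by age, sex and fisetin over all chosen cells are therefore given with and without it. The doublet caller marked under 0.5% of cells in Y FIS F2, O VEH F1 and O FIS M1, where it is taken not to have worked. Pairs of libraries shared between 8 and 51 cell barcodes over all cells, and at most 2 among chosen cells. Sex labels were borne out in all libraries, with Xist between 570 and 688 CPM (a gene's UMIs scaled to the library's total) in female libraries and at most 0.384 CPM in male ones, while Ddx3y lay between 70.7 and 83.2 CPM in males and at most at 1.44 CPM in females.

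The RNAs that chose the cells are given first, as a description without a test. Over the 15 libraries, Cd248 averaged 550 ± 111 CPM (SD) in chosen cells and lay between 383 and 775 CPM. It averaged 46.2 CPM in set B and 182 CPM in set C fibroblasts. Sema3c averaged 707 ± 120 CPM against 67.2 and 203 CPM, and Gfpt2 averaged 717 ± 181 CPM against 64.4 and 290 CPM. Library ranges of Gfpt2 overlapped with those of set C, where it reached 632 CPM beside a lowest value of 441 CPM in chosen cells. Ccl11 averaged 714 ± 129 CPM against 114 and 252 CPM. Penk averaged 376 ± 162 CPM, with libraries from 203 to 761 CPM, against 41.2 CPM in set B. Penk was as high in set C, at 394 CPM, so that it did not set the chosen cells apart from those. In GRCm39, Cd248 lies at chr19:5118106-5120710, Penk at chr4:4132722-4141856 and Ccl11 at chr11:81948618-81953781.

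Of the chosen cells, 1874 had 3 of the 5 set A RNAs, 3334 had 4 and 2804 had all 5. A further 822 fibroblasts had only 2 and met the rest of the rule, and they lay just outside it. Cells outside had fewer UMIs per cell (6550) than those just inside with 3 RNAs (10160). Cd248 was 105 CPM in cells just outside and 371 CPM in those just inside, and Sema3c was 152 and 500 CPM. Ccl11 went the other way, with 967 CPM just outside and 737 CPM just inside. The threshold therefore left out shallow cells that held Ccl11. Those cells also differed in RNAs beyond the rule, with Pi16 at 313 CPM just outside and 1140 CPM just inside, and Cd55 at 168.6 and 410.5 CPM.

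RNAs beyond the rule with the largest level ratios to both other sets are given as levels without a test. Among 7576 RNAs of at least 20 CPM in 1 of the 3 sets, the 15 with the largest ratio to the higher of the other sets were higher in all 15 libraries. Pla1a, a secreted phospholipase, averaged 272 CPM against 3.53 CPM in set B and 23.3 CPM in set C. Limch1 averaged 197 CPM against 19.3 and 35.6 CPM, and Efhd1, a mitochondrial calcium-binding protein, 128 CPM against 6.90 and 20.3 CPM. The chemokine Ccl2, which draws monocytes, averaged 58.6 CPM against 2.43 and 4.48 CPM, and its neighbour in function Ccl7 averaged 37.3 CPM against 3.50 and 6.35 CPM. Sema3e, another guidance protein, averaged 91.1 CPM against 0.659 and 14.6 CPM. Sbsn, Dact2, Mrgprg, Adamts16, Krtdap, Rorb, Aif1l, Islr2 and Chst1 completed the list. The RNAs lowest in chosen cells included Mfap4, a microfibril protein, at 71.2 CPM against 1941 and 384 CPM, and Ccn2, a target of mechanical and TGF-beta signalling, at 106 CPM against 1350 and 323 CPM. Hhip and Smoc1 were low in the same way.

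Markers of adventitial fibroblasts were uneven among the chosen cells. Among cells with 4 of the 5 set A RNAs, 1728 lacked Penk and 910 lacked Sema3c, and both kinds of cell carried different RNAs in all 15 libraries. Cells without Penk held Pi16 at 4164 CPM, Dpp4 at 464 CPM, Cd55 at 802 CPM, Limch1 at 423 CPM and Sema3e at 188 CPM. Cells without Sema3c held 365 CPM of Pi16, 13.1 CPM of Dpp4, 64.6 CPM of Cd55, 7.02 CPM of Limch1 and 4.59 CPM of Sema3e. They held more Apoe (2535 against 176 CPM), Col15a1 (663 against 49.6 CPM), Sparcl1 (1068 against 105 CPM) and Cxcl14 (256 against 1.35 CPM). Apoe encodes a lipid carrier and Col15a1 a collagen that bridges basement membranes and matrix. Further RNAs named above for their level were low in cells without Sema3c. Efhd1 was 268 CPM in cells without Penk and 12.5 CPM in cells without Sema3c, and Sbsn 213 and 12.5 CPM. Dact2 was 185 and 5.06 CPM, Mrgprg 149 and 0.487 CPM and Adamts16 109 and 0 CPM. The median depth was 13662.5 UMIs in cells without Penk and 12184.5 UMIs in cells without Sema3c. The chosen cells therefore joined cells with high Pi16 and Dpp4 to cells with less of both, and the rule had taken them as one set.

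To describe each kind of cell, chosen cells were divided by the detection of Dpp4, Limch1 and Efhd1. This division was made after the values above had been seen. In 3494 cells (43.6%) 2 or 3 of these RNAs were detected, in 3026 cells (37.8%) none was, and in 1492 cells 1 was. Median depth was 14854 UMIs in the first and 10818 UMIs in the second, so that detection also moved with depth. Cd248 was 805 CPM in cells with the Dpp4 genes and 244 CPM in cells without them, Sema3c was 1296 and 106 CPM, and Gfpt2 1087 and 323 CPM. Penk was 108 and 761 CPM and Ccl11 524 and 980 CPM, in the opposite order. Cxcl12, the chemokine on which the study centred, was 149 CPM in cells with the Dpp4 genes and 1042 CPM in cells without them, and the lymphoid chemokine Ccl19 was 17.0 and 138 CPM. Ccl2 was close to equal, at 56.9 and 50.3 CPM. The adventitial markers that took no part in the division were all lower in cells without the Dpp4 genes, to different degrees. Pi16 was 3665 and 467 CPM, Creb5 1224 and 184 CPM, Anxa3 852 and 97.6 CPM, Cd55 765 and 77.2 CPM and Smpd3 594 and 73.5 CPM. Differences were smaller for Clec3b (3029 and 2668 CPM), Scara5 (822 and 653 CPM), Ly6a (2279 and 1497 CPM) and Cd34 (1113 and 585 CPM), whose levels without the Dpp4 genes were close to those of Clec3b (2728 CPM), Scara5 (604 CPM), Ly6a (1289 CPM) and Cd34 (525 CPM) in set C fibroblasts. The share of chosen cells with 2 or 3 of these RNAs was 43.26 ± 6.71% (SD) over the Y VEH libraries and 42.59 ± 5.33% over Y FIS. In old mice it was 40.9 ± 4.77% over O VEH and 39.83 ± 7.93% over O FIS. These differences between groups lay within the SD.

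**Figure D1:**
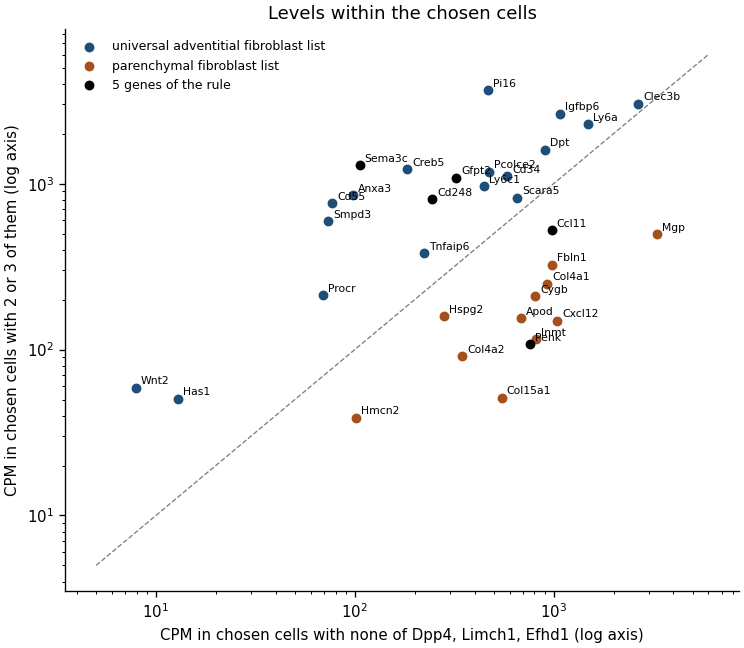
Level of each gene (CPM, log axes) in chosen cells with none of Dpp4, Limch1 and Efhd1 (horizontal) and with 2 or 3 of them (vertical), pooled over the libraries. Shown are the adventitial list without these 3 genes, the parenchymal list without Npnt, and the 5 genes of the rule. The dashed line marks equal levels. Pi16 (467 and 3665 CPM) lies far above the line, whereas Penk (761 and 108 CPM), Ccl11 and the parenchymal genes shown, such as Col15a1 (548 and 51.3 CPM), lie below it. Npnt, which is not drawn, was 0.936 and 2.19 CPM.

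Chosen cells made up between 17.61 and 51.23% of the fibroblasts of a library, and no difference in that share by age or by fisetin passed the test over libraries. The share of fibroblasts that were chosen was 40.05, 51.23, 26.21 and 33.03% in the 4 Y VEH libraries (F1, F2, M1, M2) and 32.86, 38.15 and 33.45% in the 3 O VEH libraries (F1, F2, M1). It was 50.12, 25.6, 32.45 and 23.73% in Y FIS and 40.49, 36.57, 17.61 and 21.27% in O FIS. All groups overlapped. The difference in mean share was -2.81 percentage points for O VEH against Y VEH (two-sided exact permutation test over libraries, p = 0.714), -5.84 for O FIS against O VEH (exact p = 0.429) and -4.66 for Y FIS against Y VEH (exact p = 0.514). Of the rule genes, Cpxm2 of set B (log2 difference 1.01, adjusted p = 0.00772) and Gria4 of set C (0.54, adjusted p = 0.0331) also differed with age over all fibroblasts and both treatments. Col1a1, one of the RNAs that defined a fibroblast, was lower there (-0.605, edgeR adjusted p = 0.0224). In vehicle mice Cpxm2 was 1.06 there (adjusted p = 0.129). Their part in the shares by age was not tested. Adjusted by Benjamini-Hochberg over the 4 share comparisons, these p-values from the exact permutation test were 0.714, 0.686 and 0.686. The smallest p that 3 against 4 or 4 against 4 libraries allow is 0.0286. The share tests took no account of sex, and O VEH had a single male library. Female O VEH shares lay below both female Y VEH shares, whereas the male O VEH share lay above both male Y VEH shares. Male O FIS shares lay below the male O VEH share, while female O FIS shares (40.49 and 36.57%) overlapped those of O VEH. Without Y VEH F2 the age difference changed sign, to 1.73 points. With every cell thinned to 2000 UMIs before the rule was applied, the share was 27.47 ± 6.62% in Y VEH and 20.37 ± 2.26% in O VEH, a difference of -7.1 points (two-sided exact permutation p = 0.143, adjusted p = 0.267). O FIS minus Y VEH was -8.65 points, which is given as a description because Cpxm2, one of the rule genes, differed between these groups over all fibroblasts. Female libraries averaged 39.38 ± 8.45% and male libraries 26.82 ± 6.32%, also without a test, since the rule genes C7 (log2 difference 2.24), Plcxd3 (1.29) and Gria4 (0.79) of set C were higher in males over all fibroblasts.

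**Figure D2:**
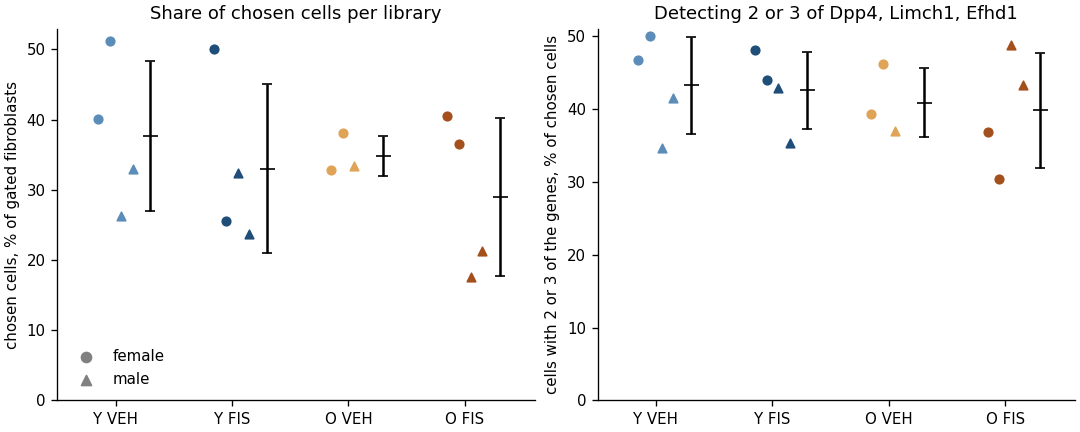
Left, chosen cells as a percentage of all fibroblasts in each library by group; right, cells with 2 or 3 of Dpp4, Limch1 and Efhd1 as a percentage of chosen cells. Points are libraries (circles females, triangles males) and bars are the mean and SD of a group; the 4 groups overlap in both panels.

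To compare RNAs between groups, UMIs were summed over the chosen cells of each library and compared over 13854 genes by quasi-likelihood in edgeR, in a model that also held sex. An RNA was called a DAR, for differentially abundant RNA, where the Benjamini-Hochberg adjusted p was under 0.05, the log2 difference lay beyond 0.25 and at least 10% of cells held it. With summed counts, a change within cells and a change in the mix of the kinds of cell cannot be told apart, and for some RNAs values are therefore also given for each kind. O VEH differed from Y VEH in 46 DARs (0.332% of genes tested), of which 27 were higher (0.195%) and 19 lower (0.137%) in O VEH. The test rested on few libraries: the count was 17 without Y VEH F2, 23 without Y VEH F1, 28 without Y VEH M2, 29 without O VEH F1, 27 without O VEH F2 and 24 without O VEH M1. It was 42 without Y FIS M1, and 14 of the 46 were DARs whichever library was left out.

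Cdk6, a cyclin-dependent kinase of the G1 phase, was among the clearest of these. It was 6.08, 8.11, 6.35 and 8 CPM in the 4 Y VEH libraries and 23.6, 29.9 and 18.4 CPM in the 3 O VEH libraries. No library of one group reached the other, and the log2 difference was 1.65 ± 0.19 (SE; edgeR, adjusted p = 0.000814). Igf2bp2, an RNA-binding protein of growth and development, was 21.5, 18.4, 23.5 and 21.6 CPM in Y VEH and 7.25, 5.74 and 6.41 CPM in O VEH. It fell by 1.71 ± 0.21 on the log2 scale (adjusted p = 0.00131). Itm2a, a membrane protein of mesenchymal development, was 136, 120, 79.7 and 112 CPM in Y VEH and 58.0, 52.3 and 27.2 CPM in O VEH, and fell by 1.48 ± 0.21 (adjusted p = 0.0055). Nkain2, a partner of the sodium pump, was 7.39, 9.96, 5.62 and 4.64 CPM in Y VEH and 93.0, 62.8 and 60.9 CPM in O VEH (log2 difference 3.27 ± 0.54, adjusted p = 0.0154). The Nkain2 call was lost without any of O VEH F1, O VEH M1, Y VEH F1, Y VEH F2 or Y VEH M2, whereas Cdk6, Igf2bp2 and Itm2a stayed DARs in all 15 such fits. In GRCm39, Cdk6 spans chr5:3391485-3581008, Igf2bp2 chr16:21877759-21982499 and Nkain2 chr10:31565306-32766458.

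Some of the largest differences with age fell on genes whose counting may be uncertain. The gene ENSMUSG00000079190, which the files give without a symbol, was at 0, 0, 0.244 and 0 CPM in Y VEH and at 15.7, 16.7 and 10.8 CPM in O VEH. That is 261 UMIs in O VEH against 1 UMI in Y VEH, a ratio of 537 with a 95% exact interval from 95.6 to 21310, which covers counting error only. ENSMUSG00000079808 had 312 against 5 UMIs, a ratio of 129 (54.5 to 399). Csprs rose from 0.985, 2.23, 1.71 and 1.28 CPM in Y VEH to 24.5, 17.0 and 24 CPM in O VEH (log2 difference 3.69 ± 0.48, adjusted p = 0.00289). These genes may belong to families with near-identical copies, which was not checked here. Neither the identifiers nor Csprs were found in the annotation used here. The counting may divide reads among such copies, and its part in these age differences was not tested.

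To use all libraries, age was then tested over both treatments as the mean of the old against young difference in vehicle and in fisetin mice. This comparison shares the vehicle libraries with the one above. It gave 266 DARs (1.92% of genes tested), of which 155 were higher (1.12%) and 111 lower (0.801%) in old mice. Without Y FIS M1 there were 218. It was lower by more than 1.5 times without Y VEH F2 (140), O VEH F1 (163) and O VEH M1 (174), and 108 of the 266 (40.6%) stayed DARs in all 15 fits that left out 1 library. In cells with the Dpp4 genes alone, 113 RNAs were higher (0.937%) and 101 lower (0.837%) of 12064 tested. In cells without them, 86 were higher (0.741%) and 47 lower (0.405%) of 11603. The 266 include genes that chose the cells, namely Galnt17 of set C (-0.50), Col1a1 and Col1a2, which are given as values only.

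Most genes listed for antigen presentation on MHC class I were higher with age. In this system B2m and the heavy chains of the H2 genes form the surface complex, the immunoproteasome subunits Psmb8 and Psmb9 cut the peptides, Tap1 and Tap2 carry them into the endoplasmic reticulum, and Nlrc5 is the transcription regulator of these genes. Of the 16 genes listed for antigen presentation class I, 13 were higher in old mice (1.12% of all genes) and none lower, and the list's median log2 difference was 0.58, where that of all genes tested was -0.000774. This list, like the other gene lists here, was chosen with earlier results of these data known. Its counts are therefore a description and no independent evidence. H2-K1 lay at 335 CPM at the lowest, 456 at the median and 594 at the highest of the 8 young libraries, and at 566, 884 and 1202 CPM in the 7 old ones (log2 difference 0.86 ± 0.15, adjusted p = 0.00769). The ranges overlapped by 1 old library, O FIS M1. Psmb8 was 78.7, 92.2 and 103 CPM in young and 116, 146 and 179 CPM in old libraries with no overlap (0.65 ± 0.09, adjusted p = 0.0017). H2-Q4 was 16.5, 19.6 and 25.4 CPM in young and 28.1, 40.2 and 64.1 CPM in old libraries (1.04 ± 0.16, adjusted p = 0.00268). The regulator Nlrc5 was low throughout, at 3.84, 4.67 and 5.13 CPM in young libraries and 3.45, 11.1 and 15.0 CPM in old ones, of which 1 library, O FIS M2, lay below all young libraries (1.18 ± 0.20, adjusted p = 0.00766).

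H2-Q7 rose by 1.83 ± 0.31 (adjusted p = 0.00691), from 7.18, 12.1 and 20.3 CPM to 25.8, 52.4 and 105 CPM, and H2-Q6 by 2.32 ± 0.40 (adjusted p = 0.00758). Both are near-identical copies, so that the division of reads between them is uncertain. H2-Q6 was held by 4.55% of cells with the Dpp4 genes and 6.94% of cells without them, and Nlrc5 by 6.1 and 7.4%. These 2 RNAs thus met the 10% minimum in old cells, where they were higher. H2-T22 (0.39 ± 0.08, adjusted p = 0.0156) and Psmb9 (log2 difference 0.63) also stayed DARs with any 1 library left out, as did H2-K1, Psmb8, H2-Q4, Nlrc5, H2-Q7 and H2-Q6. H2-D1 was 492, 685 and 927 CPM in young and 877, 1055 and 1389 CPM in old libraries (0.61 ± 0.13, adjusted p = 0.0214), and its call was lost without Y VEH F1, Y VEH F2 or O VEH F1. B2m was 538, 666 and 803 CPM in young and 771, 958 and 1389 CPM in old libraries (0.54 ± 0.12, adjusted p = 0.0271). The B2m call was lost without Y VEH F1, Y VEH F2, Y FIS F2, O VEH F1 or O VEH M1. Tap1, H2-T23 and Tap2 passed at log2 differences of 0.49, 0.45 and 0.36, and H2-T23 and Tap2 held in only 4 of the 15 fits. Psme1 (0.34), Psme2 (0.19) and Tapbp (0.02) did not pass. Leaving out Y VEH F2 or O VEH F1 lowered the count for the list from 13 to 8, and without Y FIS M1 it was 12.

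Members of this list also passed in each kind of cell and in the other fibroblasts. In cells with the Dpp4 genes 9 of 16 passed, with a median of 0.57 (0.937% of genes tested were higher there), and in cells without them 10 of 16 passed, with a median of 0.53 (0.741%). In set B fibroblasts 5 of 15 tested genes passed (median 0.48; 1.73% of 11256 genes tested were higher there), and in set C fibroblasts 8 of 16 passed (median 0.57; 0.921% of 11938). The difference in the age effect between chosen cells and either other set passed for none of the 16 genes. In O VEH against Y VEH alone, none of the 16 passed edgeR's test after adjustment, 12 had an unadjusted p under 0.05, all higher (8.84% of all genes tested had one), and the median was 0.49.

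Age differences were also fitted for each sex, a model added after the values of the class I genes had been seen. In females 168 RNAs were DARs with age (1.21%), 102 of them higher (0.736%) and 66 lower (0.476%). In males 23 were DARs (0.166%), 17 higher (0.123%) and 6 lower (0.0433%), and old males had only 3 libraries. Of the 16 genes of antigen presentation class I, 11 were higher in old females (median 0.83), and none passed in males, where 7 had an unadjusted p under 0.05, all higher (median 0.29), against 10.8% of all genes in either direction. H2-K1 was 335 to 494 CPM in young and 884 to 1202 CPM in old females, and 398 to 594 CPM in young and 566 to 717 CPM in old males. It rose by 1.25 ± 0.13 in females (adjusted p = 0.000491), while the estimate in males was 0.39 ± 0.14 (adjusted p = 0.33). The difference between the sexes itself did not pass, at -0.86 ± 0.20 for H2-K1 (adjusted p = 0.385). Over all genes that difference gave 0 DARs with edgeR and 936 genes (6.76%) with an unadjusted p under 0.05, 11 of the 16 class I genes among them, all with the smaller value in males. DESeq2 was not run on it. Leaving out O VEH M1 gave 31 DARs for the difference and 65 for males, and leaving out Y VEH M2 gave 45 for males, Y FIS M1 14 and O FIS M1 10. For females the count was 99, 79, 98 and 90 without Y VEH F1, Y VEH F2, Y FIS F1 and O FIS F2. Mesothelial markers summed to 19.9 to 602 CPM and B cell markers to 58.9 to 1022 CPM over the O FIS libraries, and 6 of 8 and 3 of 5 of them had an unadjusted p under 0.05 for the same difference. Their part in the result was not tested.

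Promoter sequences of this list are shown because its members moved together. Windows of 300 bases, from 250 before to 50 after the start of transcription, came from RefSeq (GRCm38.p6) for 14 of the 16 genes. They were searched on both strands for GAAANNGAAA, whose complement reads TTTCNNTTTC, the core of the element that interferon regulatory factors bind. It was found in B2m, H2-T22, H2-T23 and Psme1, and in 1079 of 27025 genes with a promoter (3.99%). The windows of H2-K1, H2-D1, H2-Q4, H2-Q6, H2-Q7, Psmb8, Psmb9, Psme2, Tap1 and Tapbp held no match. A match describes the sequence and is not a measured site. Stretches of 80 bases, with the match in capitals, are given for the 3 matched genes that were DARs with age. They run 5′ to 3′ on the gene's strand. Each was found once in GRCm39, at chr17:36353781-36353860 (minus strand) for H2-T22, at chr2:121977994-121978073 (plus strand) for B2m and at chr17:36343673-36343752 (minus strand) for H2-T23, and the match began 191, 139 and 124 bases before the start of transcription as RefSeq gives it. In GENCODE the genes B2m and H2-T23 begin further upstream, so that these stretches lie within them there.
H2-T22: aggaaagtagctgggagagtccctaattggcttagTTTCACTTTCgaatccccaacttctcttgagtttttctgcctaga
B2m: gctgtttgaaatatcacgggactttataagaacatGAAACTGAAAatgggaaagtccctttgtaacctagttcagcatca
H2-T23: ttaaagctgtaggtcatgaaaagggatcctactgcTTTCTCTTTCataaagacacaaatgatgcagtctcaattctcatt

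**Figure D3:**
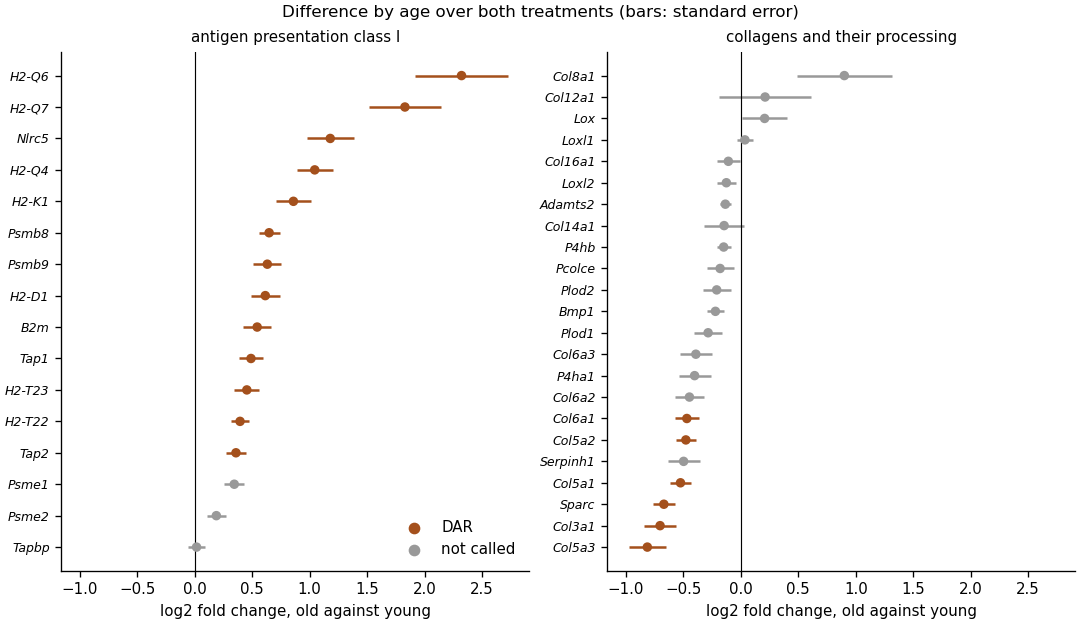
Log2 difference of old against young chosen cells for the members of 2 gene lists, over both treatments. Left, antigen presentation class I; right, collagens and their processing. Points are genes with bars for the standard error, coloured where the gene is a DAR; 13 of 16 class I genes are DARs above 0 and 6 of 23 collagen genes are DARs below 0.

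Of 30 tested genes of the interferon response 1, Igtp, a GTPase of the interferon-gamma response, was a DAR with age, where 1.12% of all genes were higher DARs (log2 difference 0.85 ± 0.19, adjusted p = 0.0323, a call lost in 8 of the 15 fits with 1 library left out), while 13 had an unadjusted p under 0.05, all higher in old mice, as did 15.4% of all genes tested in either direction. The median of the interferon response list was 0.34. In O VEH against Y VEH, 22 of the 30 had an unadjusted p under 0.05, all higher (8.84% of all genes in either direction), the median was 0.57, and none passed after adjustment.

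A few complement and secreted immune factors were higher in old mice. C4b, a complement protein of the classical pathway, was 110, 160 and 350 CPM in young and 416, 508 and 651 CPM in old libraries, without overlap (log2 difference 1.54 ± 0.22, adjusted p = 0.00168). Cfb, the protease of the alternative pathway, was 82.1, 138 and 239 CPM in young and 197, 241 and 288 CPM in old libraries (0.82 ± 0.14, adjusted p = 0.00807). They were the 2 DARs among 12 complement genes, where 1.12% of all genes were higher DARs. C1qtnf1 of the same list did not pass over both sexes (-0.33 ± 0.08, adjusted p = 0.0519). Tnfsf13b, which encodes the B cell survival factor BAFF, was 29.6, 33.2 and 36.5 CPM in young and 49.6, 54.8 and 75.5 CPM in old libraries (0.78 ± 0.09, adjusted p = 0.000384). C4b, Cfb and Tnfsf13b stayed DARs in all 15 fits that left out 1 library. The monocyte chemokine Ccl7 was 10.5, 24.7 and 32.7 CPM in young and 31.7, 49.3 and 83.9 CPM in old libraries (1.15 ± 0.23, adjusted p = 0.018, lost without O VEH F2). Ccl19 passed at 0.82 ± 0.18 (adjusted p = 0.0264), in 8 of the 15 fits. With Tnfsf13b these were the 3 DARs among 19 tested genes of the list chemokines and cytokines (1.12% of all genes), whose median was 0.45. Ccl2 ranged from 16.4 to 56.4 CPM in young and from 32.7 to 154 CPM in old libraries and did not pass (1.40 ± 0.36, adjusted p = 0.0528). The oncostatin M receptor Osmr passed at 0.82 ± 0.16 (adjusted p = 0.0156, lost without O VEH M1).

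**Figure D4:**
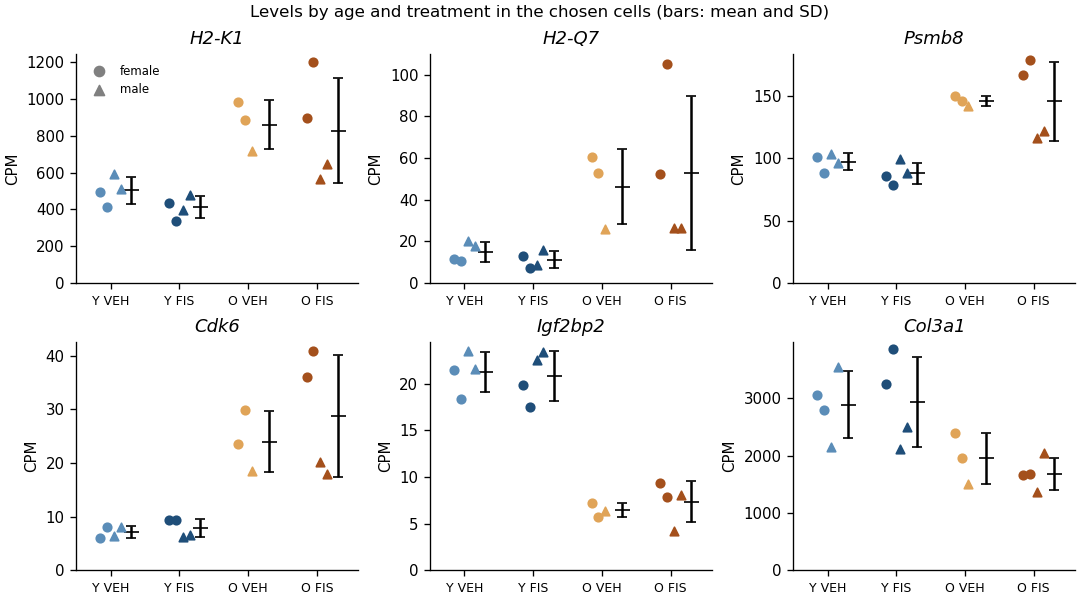
CPM in chosen cells of H2-K1, H2-Q7, Psmb8, Cdk6, Igf2bp2 and Col3a1 in the 4 groups. Points are libraries (circles females, triangles males) and bars are the mean and SD; Cdk6 is between 18.0 and 40.9 CPM in old and at most 9.42 CPM in young libraries, and Igf2bp2 lies between 4.19 and 9.32 CPM in old and at or above 17.5 CPM in young ones.

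Some collagens were lower in old mice. Of 23 genes of the list collagens and their processing, 6 were lower in old mice and none higher, where 0.801% of all genes were lower DARs, and the list's median was -0.22. Col3a1, the main collagen of distensible vessel wall after type I, was 2111, 2931 and 3869 CPM in young and 1363, 1679 and 2390 CPM in old libraries (-0.70 ± 0.14, adjusted p = 0.0168, lost without O VEH M1). Sparc, a chaperone-like protein of collagen assembly, was 3139, 3247 and 3819 CPM in young and 1786, 2137 and 2670 CPM in old libraries, without overlap (-0.67 ± 0.10, adjusted p = 0.00175). Col5a1, which starts fibrils of type I collagen, was 237, 271 and 358 CPM in young and 191, 196 and 226 CPM in old libraries (-0.52 ± 0.09, adjusted p = 0.00997). Col5a3 and Col5a2 passed at -0.81 and -0.48 and, with Sparc and Col5a1, in all 15 fits that left out 1 library. Col6a1 passed at -0.47 in 5 of them. Without Y FIS M1 the list still had 6 DARs. Col1a1 (-0.70) and Col1a2 (-0.57), which took part in choosing the cells, were lower in the same way and are given as values. In cells with the Dpp4 genes 6 of the 23 were lower (0.837% of genes tested there), and in cells without them 5 (0.405%). In set B fibroblasts 6 were lower (0.995% of all genes there) and 1 higher, and in set C fibroblasts 6 were lower (0.536%). Without O VEH M1 the list had 4 DARs in chosen cells. Other matrix lists showed 1 or 2 DARs: Fbln2 was higher (0.35) and Fbn1 lower (-0.35) of 14 elastic fibre genes, Mmp3 higher (0.72) and Adamtsl1 lower (-0.50) of 20 proteases and inhibitors, and the hyaluronan synthase Has2 lower (-0.54) of 18 genes of proteoglycans, beside 1.12% higher and 0.801% lower among all genes. These calls held in 9 or fewer of the 15 fits. Has2 was -0.34 in cells with the Dpp4 genes (adjusted p = 0.235) and -1.24 in cells without them (adjusted p = 0.0183).

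Of the 20 adventitial markers, Pi16 (-0.49 ± 0.12, adjusted p = 0.0452) and Dpt (-0.38 ± 0.09, adjusted p = 0.0431) were lower in old mice (0.801% of all genes) and none was higher, and the list's median was -0.24. Pi16 was 1998, 2414 and 2791 CPM in young and 1209, 1695 and 2171 CPM in old libraries. Both calls held in only 4 of the 15 fits with 1 library left out. Among the 12 parenchymal markers, Cygb, a cytoglobin that binds oxygen and nitric oxide, was higher (324, 443 and 531 CPM in young and 521, 600 and 652 CPM in old libraries; 0.50 ± 0.09, adjusted p = 0.00679), beside 1.12% of all genes. Col15a1 of the same list went the other way in O VEH against Y VEH, at -1.18. There it was -1.23 ± 0.38 in cells with the Dpp4 genes (edgeR adjusted p = 0.254) and -1.28 ± 0.29 in cells without them (adjusted p = 0.106).

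Transcripts of growth and of the cell cycle changed as single genes. Over both treatments Cdk6 was 6.08, 7.30 and 9.42 CPM in young and 18.0, 23.6 and 40.9 CPM in old libraries (1.74 ± 0.13, adjusted p = 5.45e-06). Cdkn2c, which encodes the CDK4 and CDK6 inhibitor p18, was 8.87, 14 and 17.0 CPM in young and 14.5, 25 and 45.0 CPM in old libraries (0.98 ± 0.14, adjusted p = 0.00186). Igf2bp2 was 17.5, 21.6 and 23.5 CPM in young and 4.19, 7.25 and 9.32 CPM in old libraries (-1.61 ± 0.14, adjusted p = 3.57e-05). Vegfa, the angiogenic factor, was 46.9, 67.8 and 81.2 CPM in young and 28.1, 37.2 and 72.0 CPM in old libraries (-0.72 ± 0.14, adjusted p = 0.0152). These 4 held in every fit that left out 1 library. Gap43, Mmp16, Nrep and Il31ra fell by 2.11, 1.49, 1.43 and 1.33 on the log2 scale, and Plscr2, Gpr39 and Snhg11 rose by 1.75, 1.57 and 2.19, in all of those fits as well. Of 20 tested genes of the list other senescence and cell cycle brake, Cdkn2c and Trp53 (0.25) were higher (1.12% of all genes) and Ccnd2, which encodes cyclin D2, a partner of CDK4 and CDK6, was lower (101, 107 and 133 CPM in young and 58.3, 73.0 and 117 CPM in old libraries; -0.55 ± 0.12, adjusted p = 0.0253, in 11 of the 15 fits), beside 0.801% of all genes. In cells with the Dpp4 genes Igf2bp2 fell by 2.54 ± 0.25 and in cells without them by 1.21 ± 0.16 (adjusted p = 3.52e-05 and 0.00135). Nkain2 rose by 3.04 ± 0.41 and 2.13 ± 0.29 in the same order.

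The study centred its senescence transcripts on endothelial cells, whereas the cells here were fibroblasts without Cdh5 RNA. Of those transcripts, some were higher in old mice and others did not pass in these fibroblasts. Cdkn1a, which encodes p21, was 60.3, 92.9 and 159 CPM in young and 81.5, 99.6 and 123 CPM in old libraries (log2 difference 0.01 ± 0.19, adjusted p = 0.998). Cdkn2a was too low to be tested. Cxcl12 was 290, 380 and 582 CPM in young and 506, 588 and 1082 CPM in old libraries and did not pass (0.75 ± 0.20, adjusted p = 0.0683). For O VEH against Y VEH its log2 difference was 1.26 ± 0.24 in cells with the Dpp4 genes (adjusted p = 0.0245) and 0.56 ± 0.31 in cells without them (adjusted p = 0.718), and the difference between these kinds was not tested. Of 13 tested genes of the list senescence and SASP of the study, a list the study chose on these samples and so no independent evidence, Ccl7 and S100a9 were higher in old mice, beside 1.12% of all genes. S100a8 and S100a9 are made by neutrophils, and S100a9 was 0, 2.02 and 19.8 CPM in young and 8.59, 16.5 and 31.6 CPM in old libraries (2.67 ± 0.65, adjusted p = 0.0448, in 3 of the 15 fits). The 6 neutrophil markers summed to 4.19 to 37.6 CPM in Y VEH, 0.421 to 10.3 in Y FIS, 17.7 to 69.4 in O VEH and 16.3 to 56.9 in O FIS, and their part in the result was not tested.

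A further group of transcripts was lower with age. Cdk8, Camk1d, Cmss1, Lars2 and Gm15564, from a list of 7 transcripts called library property genes, were lower in old mice (0.801% of all genes) by 0.97 to 1.19 on the log2 scale and were DARs in O VEH against Y VEH too. The 7 transcripts summed to between 21210 and 25540 CPM in young and between 19110 and 22350 CPM in old libraries. Their part in the other age differences was not tested.

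Sex gave more DARs than age in the chosen cells, though not over all fibroblasts, where there were 302 for sex (1.89%) and 345 for age over both treatments (2.16%). With age and treatment in the model, 342 RNAs were DARs by sex (2.47% of genes tested), of which 198 were higher (1.43%) and 144 lower (1.04%) in males. There were 266 without Y FIS M1 and 201 without Y FIS M2, and 185 (54.1%) held with any 1 library left out. Of the 12 listed sex chromosome genes all were DARs, and they are set apart here. In cells with the Dpp4 genes 124 RNAs were higher in males (1.03%) and 107 lower (0.887%), and in cells without them 206 (1.78%) and 125 (1.08%). The rule asks for more set A than set C RNAs, and C7, Plcxd3 and Gria4 of set C were higher in males over all fibroblasts. Chosen cells averaged 39.38% of fibroblasts in female and 26.82% in male libraries. Which cells were chosen could thus differ by sex, and the part of this in the sex differences was not tested.

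Sult1e1, the estrogen sulfotransferase, which inactivates estrogens, was 0.654 CPM at the lowest, 3.29 at the median and 9.69 at the highest of the 8 female libraries, and 65.4, 257 and 642 CPM in the 7 male ones (log2 difference 5.97 ± 0.41, adjusted p = 7.44e-07). Serpine2, the protease nexin that inhibits thrombin and plasminogen activators, was 19.8, 40.6 and 84.0 CPM in females and 157, 210 and 236 CPM in males (2.27 ± 0.23, adjusted p = 5.6e-05). Nt5e, the ectonucleotidase CD73, was 0.832, 1.17 and 3.14 CPM in females and 4.19, 8.55 and 18.9 CPM in males (2.89 ± 0.19, adjusted p = 4.37e-07). No male library overlapped a female one for these RNAs. Gadd45g, a stress-induced growth inhibitor, was 23.5, 38.5 and 57.6 CPM in females and 101, 135 and 186 CPM in males (1.75 ± 0.19, adjusted p = 0.000137). Cdh13, a cadherin that binds adiponectin, was 21.6, 47.3 and 78.0 CPM in females and 82.7, 105 and 191 CPM in males (1.30 ± 0.24, adjusted p = 0.0085). These 5 held in all 15 fits that left out 1 library. Tdo2, which breaks down tryptophan, passed at 4.01 ± 0.30 (adjusted p = 2.97e-06), and was lost without Y FIS M1. In GRCm39, Sult1e1 lies at chr5:87723828-87739461 and Serpine2 at chr1:79763323-79839144.

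Other RNAs were lower in males. Il4ra, the receptor chain for interleukins 4 and 13, was 21.3, 30.0 and 85.4 CPM in females and 6.63, 13 and 13.4 CPM in males, without overlap (-1.90 ± 0.32, adjusted p = 0.00463). Peg3, an imprinted gene, was 21.3, 27.2 and 50.5 CPM in females and 9.20, 13.3 and 18.1 CPM in males (-1.26 ± 0.16, adjusted p = 0.000363), and Daglb, which makes the endocannabinoid 2-arachidonoylglycerol, was 72.0, 76.3 and 172 CPM in females and 38.1, 46.9 and 54.4 CPM in males (-1.03 ± 0.17, adjusted p = 0.00362). Pparg, the adipogenic nuclear receptor, fell from 26.7, 34.2 and 45.3 CPM in females to 12.5, 15.3 and 30.2 CPM in males (-0.84 ± 0.18, adjusted p = 0.0163). These 4 held with any 1 library left out. Postn, periostin, was 96.5, 242 and 400 CPM in females and 52.2, 87.3 and 134 CPM in males (-1.33 ± 0.28, adjusted p = 0.0158, lost without Y FIS M2). Igfbp3, an insulin-like growth factor binder, was 123, 302 and 613 CPM in females and 28.5, 43.4 and 167 CPM in males (-1.99 ± 0.43, adjusted p = 0.0199, lost without O FIS M2). Mrgprg, one of the RNAs that set the chosen cells apart in level, passed at -2.41 ± 0.59 (adjusted p = 0.0396) in 6 of the 15 fits, and 1 female library, Y FIS F1, reached 281 CPM where the others lay between 25.3 and 83.0 CPM.

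**Figure D5:**
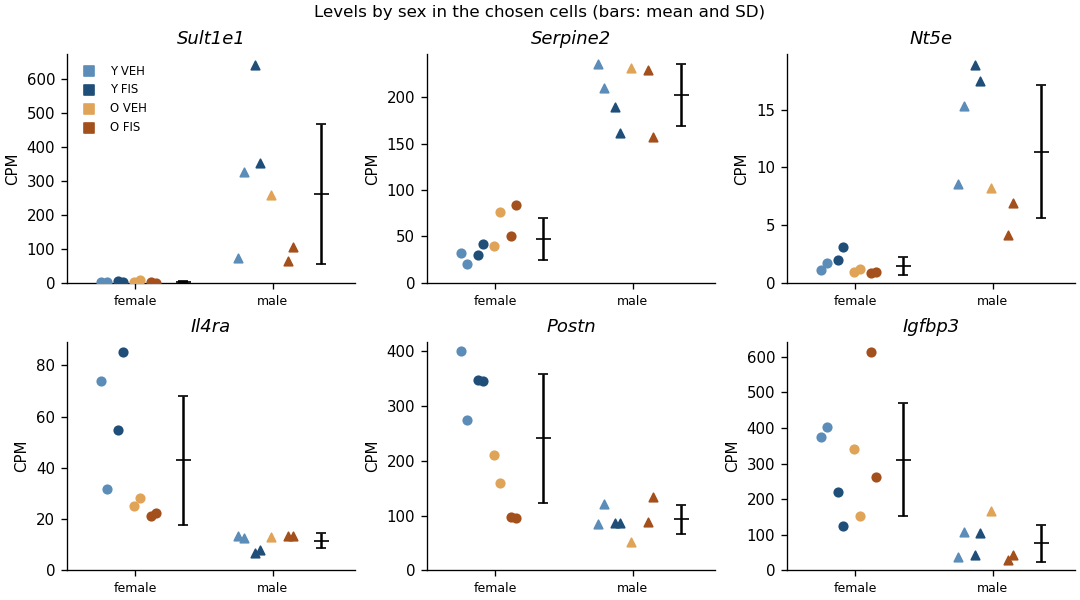
CPM in chosen cells of Sult1e1, Serpine2, Nt5e, Il4ra, Postn and Igfbp3 by sex. Points are libraries, coloured by group, and bars are the mean and SD over the libraries of a sex; for Sult1e1, Serpine2, Nt5e and Il4ra no male library overlaps a female one, while for Postn and Igfbp3 the ranges overlap.

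Some genes of the matrix lists differed by sex, where 1.43% of all genes were higher and 1.04% lower in males. Ecm1, an extracellular matrix glycoprotein, was 499, 660 and 727 CPM in females and 883, 1175 and 1363 CPM in males (0.84 ± 0.10, adjusted p = 0.0002), and Abi3bp passed at 0.45 ± 0.08 (adjusted p = 0.00744). With Has2 higher and Postn lower, these were the DARs among 18 genes of proteoglycans and matrix glycoproteins. Of 20 proteases and inhibitors, Serpine2, Timp1 and Adamts5 were higher in males and Htra3 lower. Of 26 genes of TGF-beta and BMP signalling 4 were higher in males: the target Id1 (15.3, 17.6 and 31.1 CPM in females and 21.0, 40.0 and 55.6 CPM in males; 0.90 ± 0.15, adjusted p = 0.00384), Id3 (0.76 ± 0.13), Smad6 and Eng, beside 1.43% of all genes. In cells with and without the Dpp4 genes the sex difference was 0.38 and 1.32 for Id1 (adjusted p = 0.453 and 0.00343), 1.63 and 0.66 for Cdh13 (0.00183 and 0.228) and -1.06 and -2.02 for Igfbp3 (0.129 and 0.0218), and the difference between these kinds was not tested. The venous and mesenchymal factor Nr2f2 was 101, 129 and 189 CPM in females and 156, 232 and 266 CPM in males (0.73 ± 0.11, adjusted p = 0.00257). Serping1, the inhibitor of the first complement proteases, was higher in males (0.34 ± 0.07, adjusted p = 0.012). For class I genes the sex term, which averages over ages and treatments, passed edgeR's test for none of 16. None had an unadjusted p under 0.05, and the median was -0.02. In old mice alone, as given above, every female library held more H2-K1 than every male one.

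The list immediate early and dissociation stress joins early response genes, which react within minutes to growth factors and tissue handling, to heat shock genes. Of its 26 genes, 7 were higher in males (1.43% of all genes), with a median of 0.29 and none lower. Ier2 was 93.8, 106 and 130 CPM in females and 103, 303 and 431 CPM in males (1.26 ± 0.23, adjusted p = 0.00661), Nr4a1 was 19.9, 28.2 and 40.9 CPM in females and 42.6, 91.0 and 137 CPM in males (1.43 ± 0.21, adjusted p = 0.00167), and Junb, Ier3 and Hspa1b passed at 0.68, 0.75 and 0.80. The list immediate early and dissociation stress summed to 5219 to 6879 CPM in female and 6145 to 8086 CPM in male libraries. Macrophage markers summed to 92.2 to 609.8 CPM in female and 33.8 to 165 CPM in male libraries, and 5 of 8 had an unadjusted p under 0.05, lower in males, with none called, against 18.0% of all genes in either direction. The part of these in the other sex differences was not tested. Of the genes that chose the cells, C7 (2.81), Plcxd3 (1.64), Penk (0.80) and Gfpt2 (0.46) were higher and Lum (-0.65) lower in males, and they are given as values only.

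With edgeR and the filter on genes with low counts, fisetin gave no DARs in these cells. Without the filter there were 104 in old mice, 135 in young mice and 91 for the difference between ages. In old mice, O FIS against O VEH gave 0 DARs of 13854 (0%) with edgeR's quasi-likelihood test and 2 with DESeq2, and 452 RNAs (3.26%) had an unadjusted p under 0.05. In young mice there were 0 with both tools and 491 RNAs (3.54%) with an unadjusted p under 0.05, and the difference of the fisetin effect between ages gave 0, with 444 (3.20%). The count was 0 in both ages with any 1 library left out, Y FIS M1 included. The RNA with the smallest p in old mice was Phex, a membrane peptidase of phosphate handling, at 36.5, 17.5 and 38.2 CPM in O VEH and 9.48, 10.1, 8.80 and 12.7 CPM in O FIS, so that the groups did not overlap (-1.64 ± 0.31, adjusted p = 0.463). Ier3, an early response gene, was 37.4, 31.9 and 60.3 CPM in O VEH and 58.1, 49.4, 103 and 98.5 CPM in O FIS (0.71 ± 0.13, adjusted p = 0.463). Nr4a3, an orphan nuclear receptor, was 7.71, 6.58 and 10.4 CPM in O VEH and 11.2, 12.8, 35.6 and 25.3 CPM in O FIS (1.08 ± 0.23, adjusted p = 0.68).

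The transcripts named for age did not pass the test for fisetin in old mice, and their O FIS values are given beside O VEH. Cdk6 was 35.9, 40.9, 20.1 and 18.0 CPM in O FIS beside 23.6, 29.9 and 18.4 CPM in O VEH, and H2-K1 was 897, 1202, 566 and 646 CPM beside 983, 884 and 717 CPM. Igf2bp2 was 9.32, 7.85, 4.19 and 8.05 CPM in O FIS beside 7.25, 5.74 and 6.41 CPM in O VEH. None of 16 class I genes had an unadjusted p under 0.05 for fisetin in old mice, and their median log2 difference was 0.05. Cxcl12 was 1029, 506, 518 and 617 CPM in O FIS and 1082, 546 and 588 CPM in O VEH (log2 difference -0.10 ± 0.30, adjusted p = 1). O FIS against Y VEH gave 35 DARs (0.253%), 25 higher (0.180%) and 10 lower (0.0722%), and shares the Y VEH libraries with the age comparison. It gave 83 without O FIS F1, and 23, 19, 22, 21, 22 and 20 without Y VEH F1, Y VEH F2, Y VEH M1, Y VEH M2, O FIS F2 and O FIS M2, and 42 without Y FIS M1. In young mice 8 of 30 genes of the interferon response had an unadjusted p under 0.05 for fisetin, all higher (median 0.33), and none passed. In the same comparison 5 of 8 macrophage markers had an unadjusted p under 0.05, lower in Y FIS, against 3.54% of all genes in either direction.

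To ask where the chosen cells responded differently from the other fibroblasts, the effects themselves were compared in a model over both sets of cells with the library as a block. For age over both treatments 31 of 13074 genes (0.237%) differed from set B and 3 of 13889 (0.0216%) from set C. The count against set B ranged from 17 to 93 as single libraries were left out, was under 21 without Y VEH M2, O VEH F1, O VEH F2, O FIS F2 or O FIS M2, and was over 46 without Y VEH F2, O VEH M1 or O FIS F1. Cdk6 rose by 1.74 in chosen cells and by 0.27 in set B (difference 1.45 ± 0.23, adjusted p = 0.0153), and the GTPase Rasl11a by 1.14 against -0.17 (difference 1.17 ± 0.19, adjusted p = 0.0153). In set C Cdk6 was 1.23 and Rasl11a 0.78, and neither differed from chosen cells by the test (adjusted p = 0.977 and 1). Both differences from set B held with any 1 library left out. Efemp1, a fibulin of elastic matrix, showed the reverse, at -0.18 in chosen cells and 1.55 in set B (difference -1.68 ± 0.12, adjusted p = 1.4e-06), and Mme, the peptidase neprilysin, was 0.33 against -2.04 (difference 2.37 ± 0.26, adjusted p = 0.0003). The rise of Nkain2 was larger than in set C, at 2.69 against 1.32 (difference 1.38 ± 0.19, adjusted p = 0.00623). In vehicle mice alone, Efemp1, Gab1 and Mme differed from set B (3 genes, 0.0229%) and Nkain2 from set C (1 gene, 0.00720%), of which only Efemp1 held with any 1 library left out.

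For sex, 93 genes (0.711%) differed from set B and 43 (0.310%) from set C. Genes that chose the cells are among these and are no test: Plcxd3, Ccl11 and Lum against set B, and C7 and Plcxd3 against set C. The count against set B was 56 without Y VEH M2, 44 without Y FIS F1, 44 without Y FIS M1, 42 without Y FIS M2 and 55 without O FIS M2. Against set C it was 24, 27, 28, 21 and 19 without Y FIS F1, Y FIS M1, Y FIS M2, O VEH F2 and O FIS M1. The fall of Daglb in males was near 0 in both other sets (0.04 in set B and 0.02 in set C), and differed from each, by -1.05 ± 0.17 (adjusted p = 0.00711) and -1.05 ± 0.19 (adjusted p = 0.0144). Within chosen cells it was -1.31 in cells with the Dpp4 genes and 0.04 in cells without them. Gadd45g was higher in males by 1.10 ± 0.16 more than in set B (adjusted p = 0.00454), Ecm1 by 0.82 ± 0.11 more (adjusted p = 0.00244) and Il4ra lower by a difference of -1.78 ± 0.34 (adjusted p = 0.0241, lost without Y FIS M1 or Y FIS M2). In set C Gadd45g was 1.03, Ecm1 0.90 and Il4ra -1.15, and the differences of these from chosen cells did not pass (adjusted p = 0.146, 0.905 and 0.142). Slc7a2, a carrier of arginine, was 4.30, 7.13 and 14.7 CPM in females and 9.29, 18.3 and 30.2 CPM in males, and its sex difference of 1.37 exceeded that of set B by 1.16 ± 0.14 (adjusted p = 0.00182) and that of set C by 0.91 ± 0.16 (adjusted p = 0.0144). The differences of Daglb and Slc7a2 from set C were lost without Y FIS F1. For fisetin, 1 gene differed from set B (0.00765%) and 1 from set C (0.00720%) in old mice, in both cases Spp1. Spp1, osteopontin, was 0.234, 7.05 and 21.6 CPM in O VEH and 0, 0, 0.209 and 0 CPM in O FIS, so that the fitted size rests on near-zero counts, and both calls were lost without O FIS M1, O VEH F2 or O VEH M1 and the one against set B also without O FIS F1.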

How the data were processed

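For each of 15 libraries the authors deposited a matrix of unnormalized UMI counts by gene and barcode, made with Cell Ranger 8.0.1 on GRCm39 per the submitters' processing notes. Barcodes with 200 to 7000 detected genes and at most 25% mitochondrial UMIs were kept. The members of the chosen set and all gene lists were chosen with earlier results of these data known. Counts were summed over chosen cells per library (at least 10 cells), filtered by edgeR's filterByExpr, TMM-normalized and tested with edgeR 4.0.16 (quasi-likelihood, all libraries, group and sex as terms, Benjamini-Hochberg over all genes). CPM are TMM-scaled. Differences between cell sets used the interaction term with library as a block. Shares were compared by exact permutation over libraries, without a term for sex. Scrublet (expected rate set to 0.08) marked doublets, which were kept. Only the spread between pools is measured by the p-values.

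Named genes were, per comparison, the 8 largest DARs each way whose groups did not overlap, and per list up to 4 called members by p. Further members of called lists, C1qtnf1, Slc7a2, Cdkn1a, Cxcl12 and Ccl2 were named after their values were seen, as were the division by Dpp4, Limch1 and Efhd1 and the comparison of age effects by sex. Alternatives were DESeq2 1.42.0, RLE size factors, no gene filter, no detection minimum, no cell filter, no sex term, a replicate block, only the groups compared, doublets removed, other thresholds of the rule, the rule on cells thinned to 2000 UMIs and each library left out. The pipeline was tested on simulated data. The replicate numbers showed no sign of pairing libraries: the same number within a sex correlated at 0.168 on average (0.0169 to 0.300) and other libraries of the same sex at 0.173. With so few libraries this check could miss a weak link. Tools were Python 3.11.15, scanpy 1.11.5 and R 4.3.3. Some results are not reported here.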

Additional observations from a re-analysis of the deposited data

Results flagged for a closer look

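Single libraries stood apart from the rest of their group for some RNAs by Dixon's test, in 13 of 189 groups tested, and chance alone gives about 1 in 20. Mrgprg was 280.8 CPM in Y FIS F1 and 79.04 CPM in Y VEH F2, and Daglb was 172.1 CPM in Y FIS F1. Nkain2 was 151.1 CPM in O FIS M2. In O FIS F2, ENSMUSG00000079190 was 17.33 CPM, H2-Q6 39.89 CPM and Cdkn1a 122.9 CPM. S100a8 was 12.46 CPM and Spp1 20.04 CPM in Y VEH M1. The remaining values were small: ENSMUSG00000079190 was 0.2443 CPM in Y VEH M1 and 0.6727 CPM in Y FIS F2, Nlrc5 was 4.209 CPM in Y FIS M2, and Spp1 was 0.2095 CPM in O FIS M1.

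Other results differed between the chosen cells and the other fibroblasts by a test of the difference itself (edgeR, adjusted over all genes). For age over both treatments the log2 difference from set B was 1.446 for Cdk6 and 0.8176 for Slc7a2. The age effect of Nkain2 exceeded that of set C by 1.865 in vehicle mice and 1.383 over both treatments. For sex the differences from set B were 1.579 for Cdh13, 1.155 for Slc7a2, 1.102 for Gadd45g, 0.8248 for Ecm1, 0.4248 for Abi3bp, -1.05 for Daglb and -1.777 for Il4ra. The differences from set C were 0.9089 for Slc7a2, 0.8718 for Cdh13, 0.6378 for Cfb and -1.055 for Daglb. Spp1, which was at or near 0 in many libraries, had fitted differences of 5.09 (sex, set B), 6.535 (sex, set C), -8.476 (fisetin in old mice, set B) and -18.15 (fisetin in old mice, set C), whose sizes are no bounds.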

How the results depend on the processing

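Counts of DARs moved most without the gene filter, to 473 (age in vehicle), 905 (age over both treatments), 660 (O FIS against Y VEH), 958 (sex), 104 (fisetin in old), 135 (fisetin in young) and 91 (fisetin by age). The differences from set B then were 248, 510, 531, 61 and 91 (age in vehicle, age over both treatments, sex, fisetin in old, fisetin in young) and those from set C 71, 142, 344, 73 and 50. Called collagens were then 11 and genes of the immediate early and dissociation stress list 13. DESeq2 gave 120, 427, 170, 532 and 2 for age in vehicle, age over both treatments, O FIS against Y VEH, sex and fisetin in old. With only the groups compared, age in vehicle gave 75 and O FIS against Y VEH 13. Without the sex term, O FIS against Y VEH gave 20 and age over both treatments 157. With the rule on thinned cells O FIS against Y VEH gave 57, the differences from set B were 1, 49 and 0 (age in vehicle, age over both treatments, fisetin in old) and those from set C 2, 10 and 133 (age in vehicle, age over both treatments, sex), and the log2 fold change of Ctnnd2, fisetin by age, reversed to -0.3747. In only the cells without the Dpp4 genes, an alternative chosen after seeing the data, age in vehicle gave 23, O FIS against Y VEH 3 and age over both treatments 133. The cause of these shifts was not tested.

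With each library left out in turn, DARs ranged from 17 to 59 (age in vehicle), 140 to 351 (age over both treatments), 19 to 83 (O FIS against Y VEH), 201 to 389 (sex), 79 to 201 (age in females), 10 to 65 (age in males) and 0 to 31 (their difference). The fisetin contrasts gave 0 throughout. Differences from set B ranged from 1 to 7, 17 to 93, 42 to 102, 0 to 2 and 0 to 4, and from set C from 0 to 2, 1 to 7, 19 to 64, 0 to 2 and 0 to 1, in the order above. Class I calls ranged from 8 to 13, collagens from 4 to 7 and genes of the immediate early and dissociation stress list from 5 to 9. The share differences ranged from -6.617 to 1.725 (age in vehicle), -9.671 to -2.045 (fisetin in old), -10.37 to -0.1232 (fisetin in young) and -12.48 to -4.112 points (O FIS against Y VEH).

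With the replicate block, which the check of the pairing did not call for, DARs were 38 (age in vehicle), 24 (O FIS against Y VEH) and 209 (age over both treatments), class I calls 10 and collagens 6. Of 4020 alternative values of named genes, 3500 kept direction and side of the threshold, 509 no longer passed, 10 newly passed and 1 reversed. Few libraries and the 1 male O VEH library limit the contrasts, and low RNAs are limited by the 207 chosen cells of the smallest library.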

Other observations

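Slc7a2, a carrier of arginine, was named for its sex difference and also differed with age. It was 4.30 to 18.5 CPM in young and 7.99 to 30.2 CPM in old libraries (log2 difference 0.91 ± 0.17, edgeR adjusted p = 0.0105), and this age effect exceeded that of set B fibroblasts, where it was 0.11, by 0.82 ± 0.14 (adjusted p = 0.0154). Both calls held with any 1 library left out. Cdk6, named for age, was also lower in males (log2 difference -0.56 ± 0.13, adjusted p = 0.0313, in 5 of the 15 fits with 1 library left out). Genes of the circadian clock showed 11 of 14 with an unadjusted p under 0.05 by sex, 8 higher and 3 lower in males, against 18.0% of all genes, and none passed edgeR's test after adjustment.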
